A study of Mus musculus with 6 samples.

Results

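The 7 transcription factor genes followed here belong to the network that sets the identity of sympathetic neurons: Phox2a, Isl1, Hand2, Hand1, Gata2, Gata3 and Insm1. They were measured in stellate ganglia of mice whose heart had or had not been under raised pressure. Their probe sets were all those for which the annotation of the array platform gave exactly 1 gene symbol and that symbol was 1 of the 7. This gave 13 probe sets for 7 genes, out of 45037 probe sets and 18193 named genes in all. The stellate ganglia supply most sympathetic fibres of the heart. RNA from both ganglia of 1 male C57/Bl6 mouse went to 1 Affymetrix GeneChip mouse genome array, per the labels. There were 3 sham-operated mice (sham A, B and C) and 3 mice 8 weeks after transverse aortic constriction (TAC A, B and C), a surgical narrowing of the aorta that raises the pressure load on the left ventricle. The labels do not give the age of the mice and name no transgene or drug.

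In the embryo, BMP signals from the aorta switch on a network of transcription factors in neural crest cells that settle beside it. The homeodomain factors of the Phox2 family, the LIM-homeodomain factor Isl1, the basic helix-loop-helix factors Hand2 and Hand1, the zinc-finger factors Gata2 and Gata3 and the zinc-finger factor Insm1 belong to it. Together they turn on the enzymes and transporters of noradrenaline, and several of them remain expressed in adult ganglia, where Hand2 and Gata3 are known to be needed for the noradrenergic phenotype.

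Among the genes these factors act on are Dbh, whose enzyme dopamine beta-hydroxylase makes noradrenaline from dopamine, and Th, whose enzyme tyrosine hydroxylase catalyses the first step of catecholamine synthesis. Their promoters are shown with that of Hand2, because Phox2a and Isl1 are homeodomain proteins and such proteins recognise a core of the letters ATTA. Each sequence is the 250 bases before the start of the gene in RefSeq (build GRCm38.p6), printed 5′ to 3′ on the strand of the gene, with each ATTA, read on either strand, in capitals.
Dbh, chr2:27165257-27165506, plus strand: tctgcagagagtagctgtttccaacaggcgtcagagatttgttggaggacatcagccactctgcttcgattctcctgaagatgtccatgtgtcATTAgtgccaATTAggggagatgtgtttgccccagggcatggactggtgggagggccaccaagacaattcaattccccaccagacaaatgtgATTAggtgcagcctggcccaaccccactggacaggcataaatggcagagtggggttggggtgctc
Th, chr7:142899996-142900245, minus strand: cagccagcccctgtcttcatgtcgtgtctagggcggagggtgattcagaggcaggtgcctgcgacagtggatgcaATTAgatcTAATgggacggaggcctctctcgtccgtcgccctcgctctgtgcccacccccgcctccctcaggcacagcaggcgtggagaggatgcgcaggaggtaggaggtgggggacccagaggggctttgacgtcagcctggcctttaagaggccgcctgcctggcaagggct
Hand2, chr8:57320733-57320982, plus strand: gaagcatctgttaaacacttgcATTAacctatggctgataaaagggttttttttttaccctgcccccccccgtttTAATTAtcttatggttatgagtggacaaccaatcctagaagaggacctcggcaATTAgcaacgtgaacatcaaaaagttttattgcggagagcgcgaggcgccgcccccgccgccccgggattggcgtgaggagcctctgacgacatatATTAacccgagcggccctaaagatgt

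The Dbh window held 3 matches to ATTA, of which 2 stood 157 and 147 bases before the start, and the Th window held 2. The Hand2 window held 5, where TAATTA was counted once on each strand, and also 2 matches to GATAA, a sequence that GATA factors recognise. Isl1 had 2 matches to ATTA and 1 to GATAA, Phox2a had 0 and 1, and the windows of Gata2 and Gata3 had 0 of both. Of 32851 windows of the same length before RefSeq starts, 54.9% held ATTA at least once and 22.6% held GATAA, and 9.62% held ATTA at least 4 times. The matches describe these letters and show no binding.

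The deposited values were log2-transformed. Probe sets with a mean log2 intensity under 4 over the 6 arrays were called dim and not tested, which left 17550 probe sets in all. Of the 13 probe sets of the identity factors, 11 were tested and 2 were dim, 1 of the 3 probe sets of Hand2 and 1 of the 2 of Insm1. Each gene was represented by its probe set with the highest mean. Intensities of different probe sets are not compared with each other, since each set of probes has its own response. Whole ganglia were measured, so fewer neurons and less RNA per neuron cannot be told apart.

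Pairwise correlations between arrays were 0.980 to 0.994 across tested probe sets, and TAC B was the least like the rest (mean 0.984). Transcripts of neurons and of noradrenaline synthesis were found. Of 14 neuronal marker genes 13 were above the dim level, and Rbfox3 was dim. The median TAC minus sham difference of the 13 was -0.027. Th and Dbh lay between 13.55 and 13.97 on the 6 arrays. Other tissue was present to different degrees. Summed over the 6 fat genes, the linear intensity was 2131 to 7961 for sham and 1587 to 5049 for TAC arrays, and both maxima belonged to sham C and TAC B. The 7 skeletal muscle genes summed to 70.8 to 1541 on sham and 84.1 to 284.0 on TAC arrays. Of 12 mast cell and T cell genes, 11 were dim, and of 8 endothelial genes 5 were dim, and those cells are known to use Gata2 or Gata3 as well. The tested endothelial genes were Esam at 0.58, Emcn at 0.53 and Egfl7 at 0.065, of which Esam and Emcn were highest on TAC B (limma adjusted p of 0.553, 0.556 and 0.862), and Kit, which mast cells use, was at -0.087. Their part in the values of Gata2, which was 0.16 higher after TAC, and of Gata3 was not tested.

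Of the 7 identity factor genes, 6 differed by less than 0.2 on the log2 scale between TAC and sham ganglia, from -0.083 for Gata3 to 0.18 for Hand1. The other was Insm1, whose mean was lower by 0.94. Adjusted over all 17550 probe sets, limma called 0 of the 7 genes, as it called 0% of all probe sets. At an unadjusted p under 0.05 there were 0 of the 7, against 9.08% of all probe sets, 6.03% higher and 3.05% lower. With quantile normalization or median centring Insm1 passed this unadjusted level (limma unadjusted p = 0.0370 and 0.0372). It also did so in the fit on gene means of probe sets not dim (limma unadjusted p = 0.0494). That fit used the same Insm1 values and the same difference, since only its brighter probe set was not dim. The median difference over the 7 genes was -0.014, beside 0.026 over all tested probe sets, of which 71.2% differed by less than 0.2. The plot of single values per probe set shows how close together the arrays lay.

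**Figure D1:**
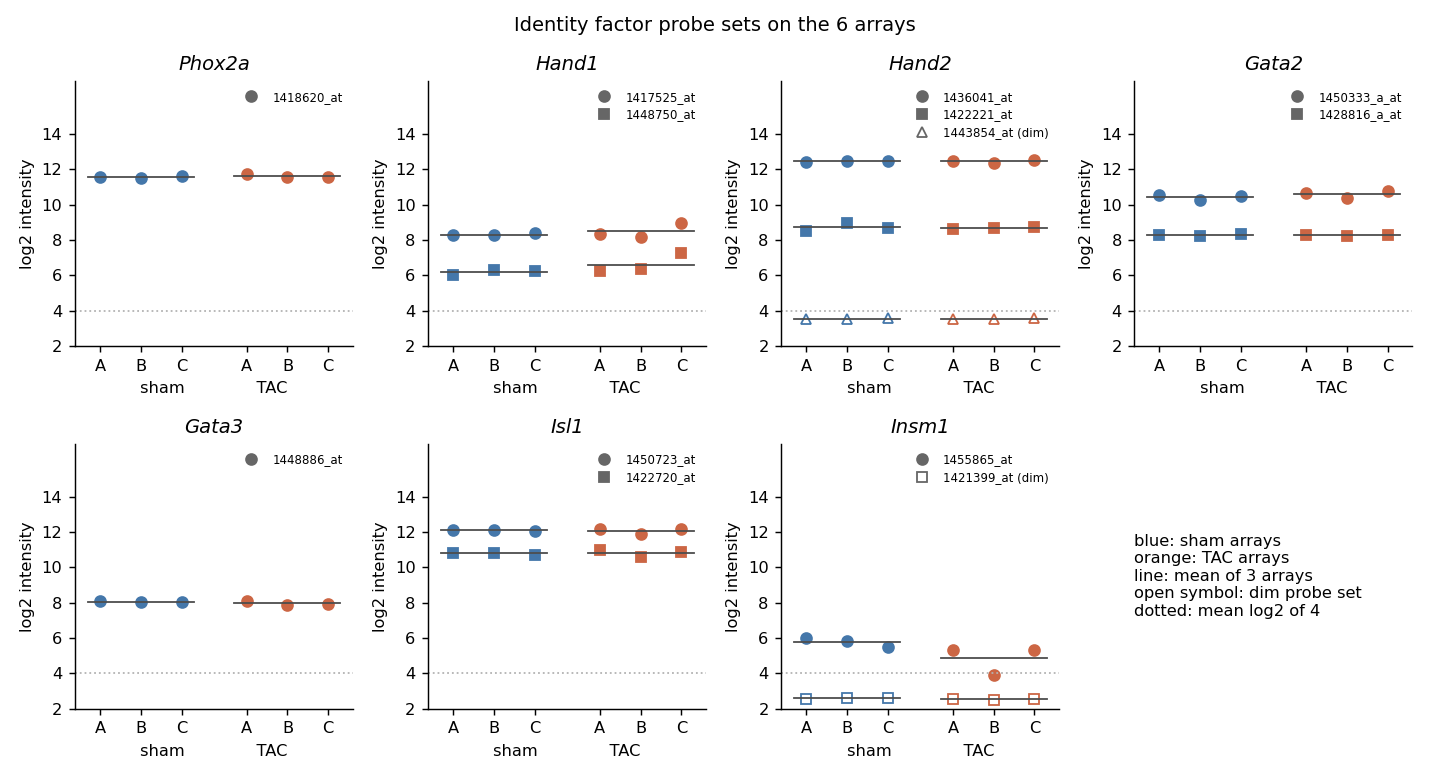
Log2 intensity (vertical axis) of the 13 probe sets of the 7 identity factors on the 3 sham arrays (blue) and the 3 TAC arrays (orange), with the mean of each group as a line; open symbols are the 2 dim probe sets, and the dotted line marks a log2 of 4. Groups overlap for every tested probe set but 1455865_at of Insm1, where sham ran from 5.50 to 6.02 and TAC from 3.89 to 5.33.

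Phox2a, the homeodomain factor that acts directly on noradrenergic genes, was read by 1 probe set (1418620_at). Values on the sham arrays A, B and C were 11.55, 11.54 and 11.64, and on the TAC arrays 11.74, 11.56 and 11.59 in the same order. TAC B and TAC C lay inside the sham range and TAC A above it. The means were 11.58 ± 0.06 and 11.63 ± 0.09 (SD, n = 3), a difference of 0.054 (SE 0.084; limma adjusted p = 0.834). The 95% confidence interval of the ratio of TAC to sham was 0.903 to 1.19, which leaves larger changes of Phox2a in either direction outside the interval.

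Isl1, a LIM-homeodomain factor that sympathetic and sensory neurons need for their differentiation, was read by 2 probe sets. The brighter one (1450723_at) measured 12.12, 12.09 and 12.07 on the sham arrays and 12.16, 11.90 and 12.17 on the TAC arrays. TAC A and TAC C lay above all sham arrays and TAC B below them, so the groups overlapped. Its means were 12.09 ± 0.02 and 12.08 ± 0.15 (SD, n = 3), a ratio of 0.990 with a 95% confidence interval of 0.842 to 1.16 (limma adjusted p = 0.970). The other probe set (1422720_at) measured 11.01, 10.58 and 10.89 on the TAC arrays against 10.84, 10.82 and 10.71 on sham, and differed by 0.038 (SE 0.12). Both probe sets of Isl1 were thus lowest on TAC B.

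Hand2, the helix-loop-helix factor that maintains Th and Dbh expression in sympathetic neurons, varied little among the arrays. Its brightest probe set (1436041_at) measured 12.44, 12.49 and 12.48 on sham and 12.48, 12.34 and 12.53 on TAC arrays, again with TAC B lowest. The means were 12.47 ± 0.03 and 12.45 ± 0.10 (SD, n = 3), a ratio of 0.986 (95% confidence interval 0.860 to 1.13, limma adjusted p = 0.945). The residual SD of this probe set, 0.07, was at the 13.7th percentile of all tested probe sets. The second probe set (1422221_at) measured 8.53 to 8.94 on sham and 8.60 to 8.76 on TAC arrays, all TAC values lying within the sham range. The third (1443854_at) was dim, at 3.53 to 3.59 on all 6 arrays.

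Hand1, the close relative of Hand2, was higher on TAC C than on the other 5 arrays. The brighter probe set (1417525_at) measured 8.29, 8.27 and 8.38 on sham and 8.37, 8.15 and 8.96 on TAC arrays, so that TAC C lay above the other arrays and TAC B below them. The second probe set (1448750_at) measured 6.03, 6.30 and 6.26 on sham and 6.22, 6.34 and 7.27 on TAC arrays, and TAC C was again the highest. The differences in the mean were 0.18 (SE 0.20; limma adjusted p = 0.768) and 0.42 (SE 0.28; limma adjusted p = 0.640). Without TAC C they were -0.054 and 0.086. The brightest probe set of Hand2 was at 12.53 on TAC C, which is 0.063 above the sham mean.

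Gata2 and Gata3 encode zinc-finger factors that bind the same core sequence and act downstream of the Phox2 factors in sympathetic neurons. The brighter probe set of Gata2 (1450333_a_at) measured 10.55, 10.28 and 10.50 on sham and 10.69, 10.36 and 10.76 on TAC arrays, with TAC A and TAC C above all sham arrays and TAC B within them. Its means were 10.44 ± 0.15 and 10.60 ± 0.21 (SD, n = 3), a ratio of 1.12 with a 95% confidence interval of 0.890 to 1.40 (limma adjusted p = 0.694). The other Gata2 probe set (1428816_a_at) did not follow it: it spanned 0.094 over all 6 arrays, 8.22 to 8.32, and differed by -0.0011 (SE 0.073).

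Gata3, which sympathetic neurons are known to need for survival and for their noradrenergic genes, was read by 1 probe set (1448886_at). It measured 8.09, 8.06 and 8.02 on sham and 8.11, 7.88 and 7.93 on TAC arrays. TAC B and TAC C lay below all sham arrays and TAC A above them. The means were 8.06 ± 0.03 and 7.97 ± 0.12 (SD, n = 3), a ratio of 0.944 with a 95% confidence interval of 0.817 to 1.09 (limma adjusted p = 0.749).

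**Figure D2:**
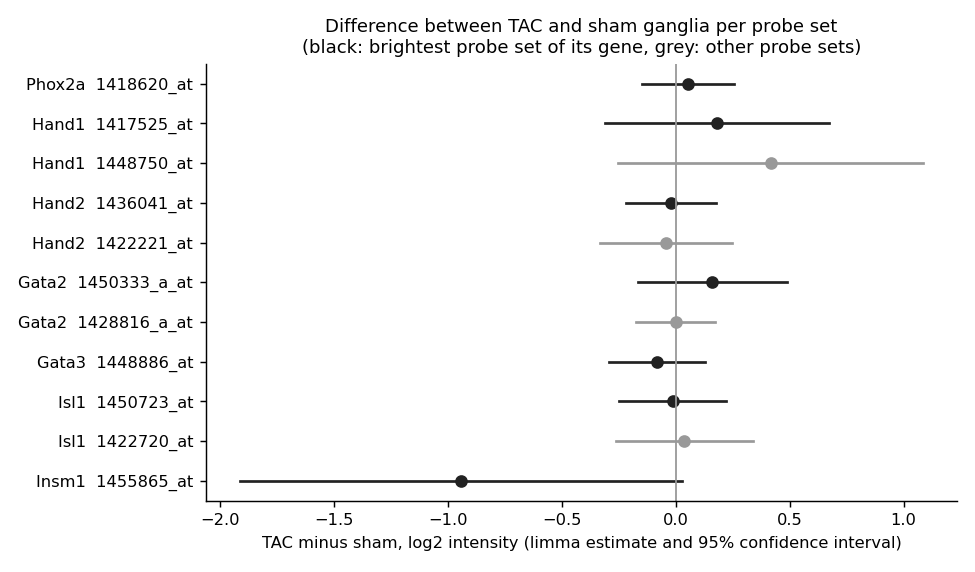
TAC minus sham difference in log2 intensity (horizontal axis) for the 11 tested probe sets, as the limma estimate with its 95% confidence interval; black marks the brightest probe set of each gene and grey the others. Every interval includes 0, and those of Hand1 and Insm1 are the widest, reaching 1.09 for Hand1 and -1.91 for Insm1.

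Insm1, a zinc-finger factor of developing sympathetic neurons and of neuroendocrine cells that carries a repressor domain binding the histone demethylase Kdm1a, was the only one of the 7 genes whose groups did not overlap. Its brighter probe set (1455865_at) gave 6.02, 5.86 and 5.50 on the sham arrays, in the order A, B, C, and 5.33, 3.89 and 5.32 on the TAC arrays. All 3 TAC arrays lay below all 3 sham arrays, TAC A and TAC C by little and TAC B by far more. The means were 5.79 ± 0.26 and 4.85 ± 0.83 (SD, n = 3), so that the level was 1.92-fold lower after TAC on the linear scale. The difference was -0.94 (SE 0.40, 95% confidence interval -1.91 to 0.03) and was not called (limma unadjusted p = 0.0553, adjusted p = 0.549). An exact two-sided permutation test gave p = 0.1, the smallest value that 3 arrays against 3 allow.

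Separate groups were found for 1 of the 7 genes, or 14.3%, which is near the share over all tested probe sets, of which 17.9% were separate, 9.02% with TAC above sham and 8.85% with TAC below. Only 25 of the 17550 probe sets, 0.142%, had a mean further below sham than Insm1. The residual SD of its brighter probe set, 0.62, was at the 98.7th percentile of all tested probe sets. The Insm1 difference was known from earlier results of these data, so its rank is no added support. On TAC B, Insm1 lay under the log2 of 4 that marks dim probe sets, where GCRMA compresses values. The second Insm1 probe set (1421399_at) was dim on every array, at 2.54 to 2.63 on sham and 2.52 to 2.53 on TAC arrays. Its groups were also separate, by a difference of -0.070, but 87.0% of all dim probe sets had a lower mean on the TAC arrays. Without TAC B the difference of the brighter probe set was -0.46, or 1.38-fold (limma unadjusted p = 0.0355, adjusted p = 0.698). Insm1 was lowest in its group on sham C and TAC B, the arrays with the most fat transcripts. Without both the difference was -0.61, or 1.52-fold (limma unadjusted p = 0.00342, adjusted p = 0.824). Leaving out the lowest array of each group narrows the spread, so the smaller unadjusted p is no added support. Groups that were already separate also stay so, and 37.9% of all tested probe sets were separate in that fit.

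**Figure D3:**
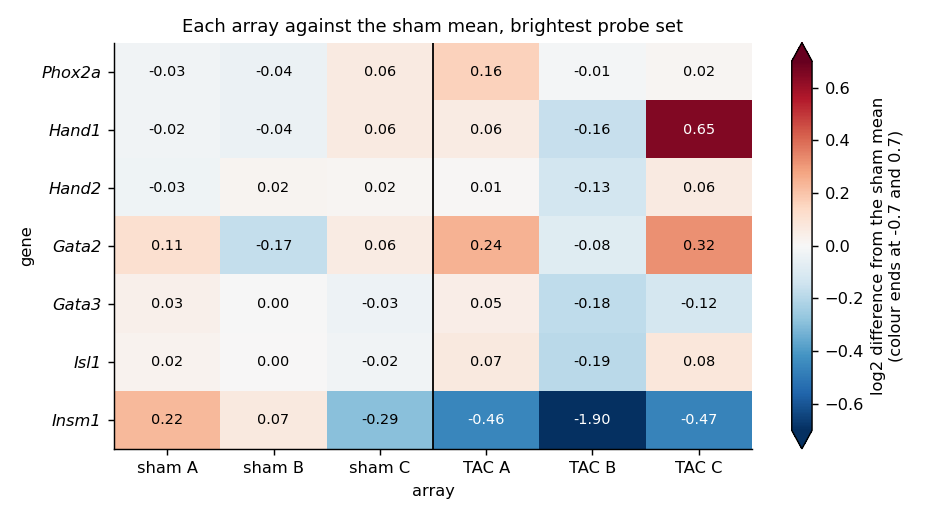
Log2 difference of each array from the mean of the 3 sham arrays, for the brightest probe set of each gene (rows) on each array (columns); red is above and blue below the sham mean, and colours end at -0.7 and 0.7. TAC B is below the sham mean for all 7 genes, from -0.01 for Phox2a to -1.90 for Insm1, and Hand1 stands out on TAC C at 0.65.

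The array TAC B held the lowest value of the 6 arrays for 5 of the 7 genes, Isl1, Hand2, Hand1, Gata3 and Insm1. For 6 of the 11 tested probe sets it was the lowest and for 0 the highest. Among all tested probe sets, TAC B was lowest for 21.6% and highest for 26.7%. The median deviation of the 7 genes from their own mean over the arrays was -0.16 on TAC B, beside 0.0070 for all probe sets there, and between 0.0078 and 0.077 on the other 5 arrays. TAC C was the highest array for 4 of the 7 genes, Isl1, Hand2, Hand1 and Gata2, and for 15.4% of all probe sets. TAC B had the highest fat sum of the TAC arrays and sham C that of the sham arrays. Sham C was the lowest of the 6 arrays for 0 of the 7 genes. Among the sham arrays it was lowest for Gata3, Isl1 and Insm1, and sham A or sham B was lowest for the other genes. The part of fat tissue in these values was not tested.

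The brightest probe sets of all 7 genes were more spread among the TAC than among the sham arrays, as were 50.5% of all tested probe sets. Over the tested probe sets of these genes it was 9 of 11. The second probe sets of Hand2 (SD 0.20 on sham, 0.08 on TAC) and Gata2 (0.05 and 0.03) went the other way. Without TAC B a larger spread in TAC held for 4 of the 7 brightest probe sets, and for 33.7% of all. The count of genes with separate groups depended on single arrays too. It was 2 without sham C, where Phox2a joined Insm1, 2 without TAC A, where Gata3 joined, and 3 without TAC B, where Gata2 and Isl1 joined. With one array fewer, separation was also more frequent over all probe sets, at 25.2%, 31.6% and 28.1%.

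Insm1 was the only one of the genes whose brightest probe set spanned at least 1 on the log2 scale. Over the 6 arrays, its pattern after subtraction of the mean was compared with those of 9954 other genes. The nearest, by the root mean square difference of log2 values, was Tenm4, a teneurin of the cell surface, at 0.16, where the median gene was at 0.70. Next came Islr2, a membrane protein of axons, at 0.17, the chemokine receptor gene Cxcr4 at 0.23, and the retinaldehyde-binding protein gene Rlbp1 and the growth factor signalling inhibitor gene Spry4, both at 0.24. All 5 were lowest on TAC B, which follows from their choice by nearness to Insm1 and is no separate result. Tenm4 measured 9.20, 9.07 and 8.84 on sham and 8.54, 7.48 and 8.42 on TAC arrays. Its groups did not overlap, which the same choice favours. None of the 5 was called (limma adjusted p from 0.531 to 0.640).

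Of 30 other transcription factors of the same network, 26 were analysed here, 7 of them dim, and of the 19 tested limma called 0, with 10 higher and 9 lower means and a median of 0.02. At an unadjusted p under 0.05 there was 1, the cAMP-responsive factor Creb1, which measured 9.16 ± 0.05 on sham and 8.91 ± 0.11 on TAC arrays (SD, n = 3; limma adjusted p = 0.542). Tbx20 was at 0.38, Ets1 at 0.56 and the repressor gene Zeb2 at -0.25. On TAC B, 11 of the 19 were at their lowest and 2 at their highest of the 6 arrays. Sox11, an early factor of sympathetic neuron growth, was at -0.08, Hmx1 at -0.17 and Tfap2b at -0.16. Of the cofactors and antagonists, 20 of 25 were tested and 0 called, with 0 at an unadjusted p under 0.05 and a median of 0.01.

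Several of these cofactors are known to bind the factors themselves. Zfpm1 and Zfpm2, the FOG cofactors of GATA proteins, were at 0.14 and 0.25. Ldb1, which joins LIM-domain factors such as Isl1 into complexes, was at 0.34, through TAC B at 7.47 and TAC C at 6.96 against 6.67 to 6.71 on the other 4 arrays. Lmo1 was at -0.16, the TAC arrays all lying below the sham arrays, and Kdm1a, which Insm1 recruits, at -0.20. The helix-loop-helix inhibitor Id3 was at 0.15 with separate groups, and Id2 at -0.20. Of the 20 tested cofactors and antagonists, 1 was separate with TAC above sham, Id3, and 2 with TAC below, Lmo1 and Lmo2 (-0.09). Over all tested probe sets these shares were 9.02% and 8.85%. Rlim, a ubiquitin ligase of LIM cofactors, was at 0.25. None of these was called (limma adjusted p of 0.556 for Lmo1, 0.562 for Kdm1a, 0.566 for Id3 and 0.573 for Rlim).

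**Figure D4:**
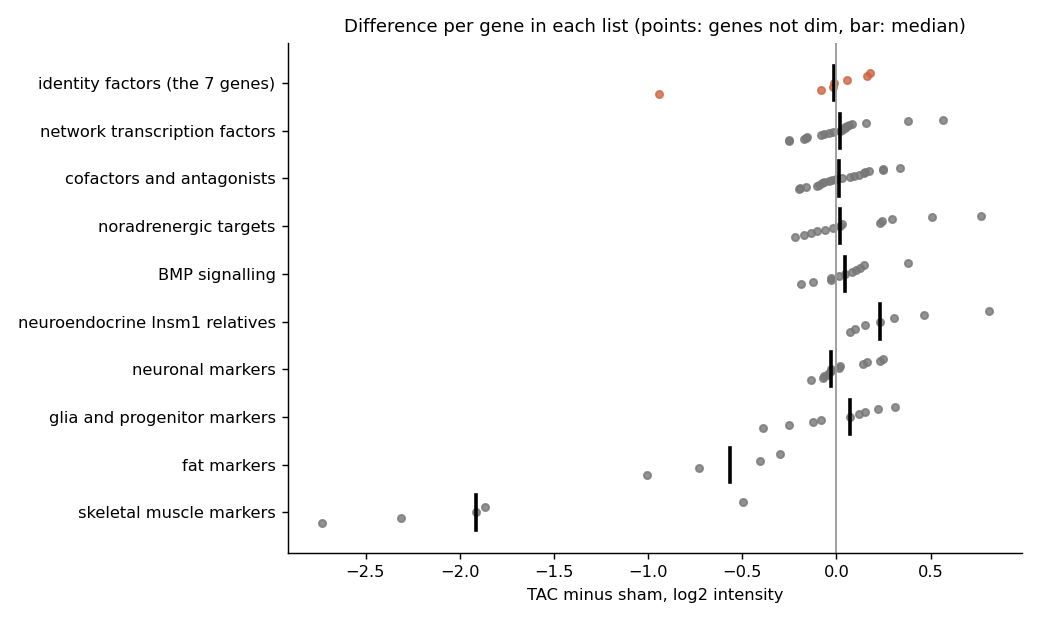
TAC minus sham difference in log2 intensity (horizontal axis) for the 7 identity factors (orange) and for the genes of 9 other lists (grey), 1 point per gene that was not dim, with the median as a black bar. Of the 7 factors, 6 sit near 0 and Insm1 apart at -0.94, the network factors and cofactors spread to both sides of 0, and the fat and muscle genes lie lower.

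The paralogues of the factors were nearly all dim. Of 12 relatives, among them Gata1, Gata4, Gata5, Gata6 and Isl2, 11 were dim, and the tested one was Insm2, at 9.27 ± 0.23 on sham and 9.40 ± 0.14 on TAC arrays (SD, n = 3), a difference of 0.14 (SE 0.14; limma adjusted p = 0.744). Its values were 9.45, 9.01 and 9.33 on sham and 9.37, 9.56 and 9.28 on TAC arrays, so Insm2 was highest on TAC B, where Insm1 was lowest. Of the 17 genes of BMP signalling, which starts the network in the embryo, 11 were tested and 0 called, with 0 at an unadjusted p under 0.05 and a median of 0.04. The receptor genes Acvr1, Bmpr1a and Bmpr1b were at 0.13, 0.08 and 0.15, the ligand gene Bmp4 at -0.12 and the decoy receptor gene Bambi at -0.19.

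A list of noradrenergic genes, with others such as Npy and Ret, had 13 tested genes, of which 0 were called. At an unadjusted p under 0.05 there were 5, all higher after TAC, where 6.03% of all probe sets did so. Whether the 7 factors act on each of them was not tested. Dbh measured 13.75, 13.92 and 13.90 on sham and 13.88, 13.97 and 13.82 on TAC arrays, and differed by 0.03. Th measured 13.55, 13.56 and 13.66 on sham and 13.77, 13.88 and 13.86 on TAC arrays, with every TAC array above every sham array (0.24, SE 0.08; limma adjusted p = 0.531). The other 4 were Npy, the gene of the cotransmitter neuropeptide Y, at 0.77 (SE 0.11, limma adjusted p = 0.512), the vesicular monoamine transporter genes Slc18a1 at 0.50 and Slc18a2 at 0.29, and the nicotinic receptor gene Chrna3 at 0.23, each with separate groups. Groups were separate with TAC above sham for 5 of the 13 genes and with TAC below for 1, Maoa at -0.17. Over all tested probe sets these shares were 9.02% and 8.85%. The noradrenaline transporter gene Slc6a2 was at -0.10. On TAC B, where 5 of the 7 factors were lowest, 4 of the 13 genes were at their highest of the 6 arrays, Th, Dbh, Npy and Slc18a2, and 3 at their lowest, Slc6a2, Maoa and Ret.

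In neuroendocrine cells Insm1 is expressed beside secretory genes. A list of 13 genes held such genes, transcription factors and the cell cycle gene Ccnd1. Of these 6 were dim, all transcription factors, among them Neurod1 and Nkx2-2. In the 7 others, Ccnd1 included at 0.07, the TAC mean was above the sham mean, by a median of 0.23, and 0 were called. Over all tested probe sets, 9840 of 17550 had a higher TAC mean. Pcsk1 was at 0.81, Chgb at 0.46 and Snap25 at 0.23, each with separate groups (limma adjusted p from 0.512 to 0.542), and Scg2 was at 0.31. No other gene of the 7 had separate groups. Over all tested probe sets, 9.02% were separate with TAC above sham. On TAC B 4 of the 7 were highest, among them Pcsk1. Of 8 listed proliferation genes, 7 were analysed here and 6 of them were dim, including Mki67 and Top2a, and Pcna differed by 0.12. The glia and progenitor list had a median of 0.07 over 9 genes with 0 called. Its Sox10 was at 0.075, Cdh19 at 0.31, Glul at 0.22, S100b at -0.25 and Fabp7 at -0.39 (limma adjusted p = 0.567). Of the 9 genes only Fabp7 had separate groups, where 17.9% of all tested probe sets did. Fabp7 was lowest on TAC B as well, at 13.11 against 13.73 to 14.08 on the other arrays.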

How the data were processed

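Probe set intensities of 6 Affymetrix arrays, 3 sham and 3 TAC, were deposited by the authors on a linear scale. They were made with GCRMA, per the submitters' processing notes, with version and settings not given in the sources used here. Of 45101 probe sets, 64 controls were left out, and of the rest 34945 had 1 gene symbol in the platform annotation, 932 several and 9160 none. Analysis used log2 of these values as they stand. The 27487 probe sets with a mean under 4 were not tested. TAC was set against sham with limma 3.58.1 in R 4.3.3 (lmFit, eBayes, two-sided, Benjamini-Hochberg adjustment, threshold 0.05), which was tested on simulated data. Standard errors and 95% confidence intervals are limma's moderated ones, whose precision is limited by having 3 arrays per group. The members, lists and tests were chosen with earlier results of these data known. Named were every probe set of the 7 genes, up to 4 genes of smallest p per list, and the 5 genes nearest in pattern to Insm1; those of the neuronal, fibroblast, muscle, fat and chromaffin marker lists are not all printed. Other list genes were chosen after their values were seen. Same-lettered arrays were not paired: the deviations of sham and TAC arrays with the same letter correlated at 0.08, -0.0031 and -0.17 for A, B and C. Figures were drawn with matplotlib 3.10.9.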

Additional observations from a re-analysis of the deposited data

How the results depend on the processing

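Across 17 other fits (no floor or a floor of 6, other variance models, array weights, renormalization, gene means, the letter block, arrays left out), limma called 0 of the 7 genes. Insm1 was lower in all 15 that fitted it, at -1.18 to -0.46 with 1 array left out and adjusted p from 0.238 to 0.824; with a floor of 6 or the mean of all its probe sets it was not tested. With the title letter as a replicate block its difference was -0.94 (limma adjusted p = 0.602), and the block changed no other call. Reversed signs were found for Hand2 with array weights (0.021) and with sham C and TAC B both left out (0.043), and for Isl1 with array weights (0.050), with those 2 arrays left out (0.062) and as a mean of probe sets (0.012, with or without dim ones). With 1 array left out Hand2 was at -0.062 to 0.035, Isl1 at -0.060 to 0.074 and Hand1 at -0.054 to 0.35. Genes with separate groups numbered 1 to 3 with 1 array left out, 5 with sham C and TAC B both left out (37.9% over the whole table), and 0 where Insm1 drops out, under the floor of 6 and under the mean of all probe sets. Probe sets called numbered 0 to 1 with 1 array left out (Mir670hg without TAC B, Sst without TAC C), and 1594 had an unadjusted p under 0.05; as means of the probe sets not dim, 2 of 9955 genes were called, Cartpt and Sst. Insm1 had a limma unadjusted p of 0.00342 to 0.149. That p was under 0.05 also without TAC A (0.0388), TAC B (0.0355) or TAC C (0.0408). It was above 0.05 without sham A (0.149), sham B (0.123) or sham C (0.0673). So it was with array weights (0.114), no floor (0.0915), the other variance models and the letter block. Other causes were not tested. Quantile normalization and median centring moved the median of all probe sets by less than 0.1 and turned no sign among the 7 genes. Low signal limits Insm1, which lay near the dim level.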
